A study of Homo sapiens with 2 samples.

Results

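The genes examined were those of the proteasome, its activators and the factors that assemble it. They were taken by name: every gene symbol made of PSMA, PSMB, PSMC, PSMD, PSME, PSMF or PSMG and a number, and POMP. There were 45 such genes among 11589 gene symbols, with 163 listed transcripts, and all 45 reached 0.5 FPKM in at least 1 library. FPKM counts fragments per kilobase of a transcript for each 1000000 fragments mapped, and the FPKM of a gene is the sum over its transcripts. These genes were chosen with the comparison reported here already known, so their values are a description and support nothing by themselves. PSMA8, PSMB8, PSMB9 and PSMB11 were not analysed here, and PSMC3IP, whose symbol has letters after the number, was not counted.

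RNA came from HepG2, an established human line derived from a liver cancer. One group was exposed for 8 h to fluid shear stress (FSS), the drag of a moving liquid along the cell surface, and the other, untreated, stayed in static culture. Both were grown in DMEM with fetal bovine serum at passage 10 to 15. There was 1 library per group, each mixed from 3 replicates, so there is no replicate error, no test and no p-value, and a difference is one between these libraries.

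The proteasome is the protease that degrades proteins tagged with ubiquitin. Its core particle is a barrel of alpha and beta rings with the cutting sites inside, and a regulatory particle at its end, made of a base with ATPases and a lid, receives the ubiquitin chains, unfolds the substrate and feeds it in. Other activators can take the place of the regulatory particle, and dedicated chaperones build the rings in a fixed order. Liver cells, like others, raise proteasome gene expression through the transcription factor NFE2L1 when the protease is inhibited.

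All listed FPKM added up to 323352 under FSS and 325712 in static culture, and how many reads lie behind them is not known. Differences are given as the log2 ratio of FPKM + 1, FSS over static, and higher or lower means at least 1.5-fold on that scale. Over the 11221 genes with at least 0.5 FPKM in 1 library, 1180 (10.5%) were higher in FSS and 3310 (29.5%) were lower, with a median of -0.25. Subtracting the median over genes of 5 FPKM or more (-0.23) gave 2002 higher (17.8%) and 2012 lower (17.9%), and these values are called centred. GAPDH and ACTB had log2 ratios of 0.18 and 0.10. Of 16 hepatocyte markers, 7 were in the table, and ALB and AFP were among those not analysed here. The 5 of at least 0.5 FPKM summed to 695 FPKM in static and 290 FPKM in FSS cells, most of it CPS1 (442 and 119 FPKM) and ASS1 (243 and 162 FPKM), while ASGR1 and AMBP were at 0 in static cells. Blood markers (CD68 and CD14, 2 of 5 listed) summed to 1.70 and 6.06 FPKM, and fibroblast markers (COL1A1 and DCN, 2 of 4 listed) to 28.0 and 6.06 FPKM, with DCN at 0 in static cells. In a bulk library, fewer cells of a type and less RNA per cell cannot be told apart, and the part of these markers in the proteasome values was not tested.

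Of the 45 proteasome genes, 10 (22.2%) were at least 1.5-fold higher in FSS cells, against 10.5% of all genes measured, and 4 (8.89%) were lower, against 29.5%. The other 31 lay within 1.5-fold. The median log2 ratio was 0.10, or 0.33 centred, and 35 of the 45 genes (77.8%) lay above the median of all genes. Centred, 16 were higher and 2 were lower, and the 16 included all 10. Summed over the 45 genes, the level was 2700 FPKM in static and 3160 FPKM in FSS cells, or 0.828% and 0.977% of all listed FPKM. The genes did not move as a block: log2 ratios ran from -0.95 for PSME1 to 1.10 for PSMD12. The 10 higher genes were at 24.2 to 80.1 FPKM in static cells. Of the 7 genes at 100 FPKM or more in static cells, 0 were higher and 1, PSMD4, was lower. Centred, PSMB7 (0.64) was higher and PSMD4 (-0.36) lay within 1.5-fold. The shares over all genes at that level were not counted, so no link with level can be read from this. The limit of 1.5-fold is a log2 ratio of 0.585, and the values nearest it were 0.614 (PSMD8, counted), 0.533 (PSMD14, not counted), -0.596 (PSMD4, counted) and -0.582 (PSMD5, not counted).

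**Figure D1:**
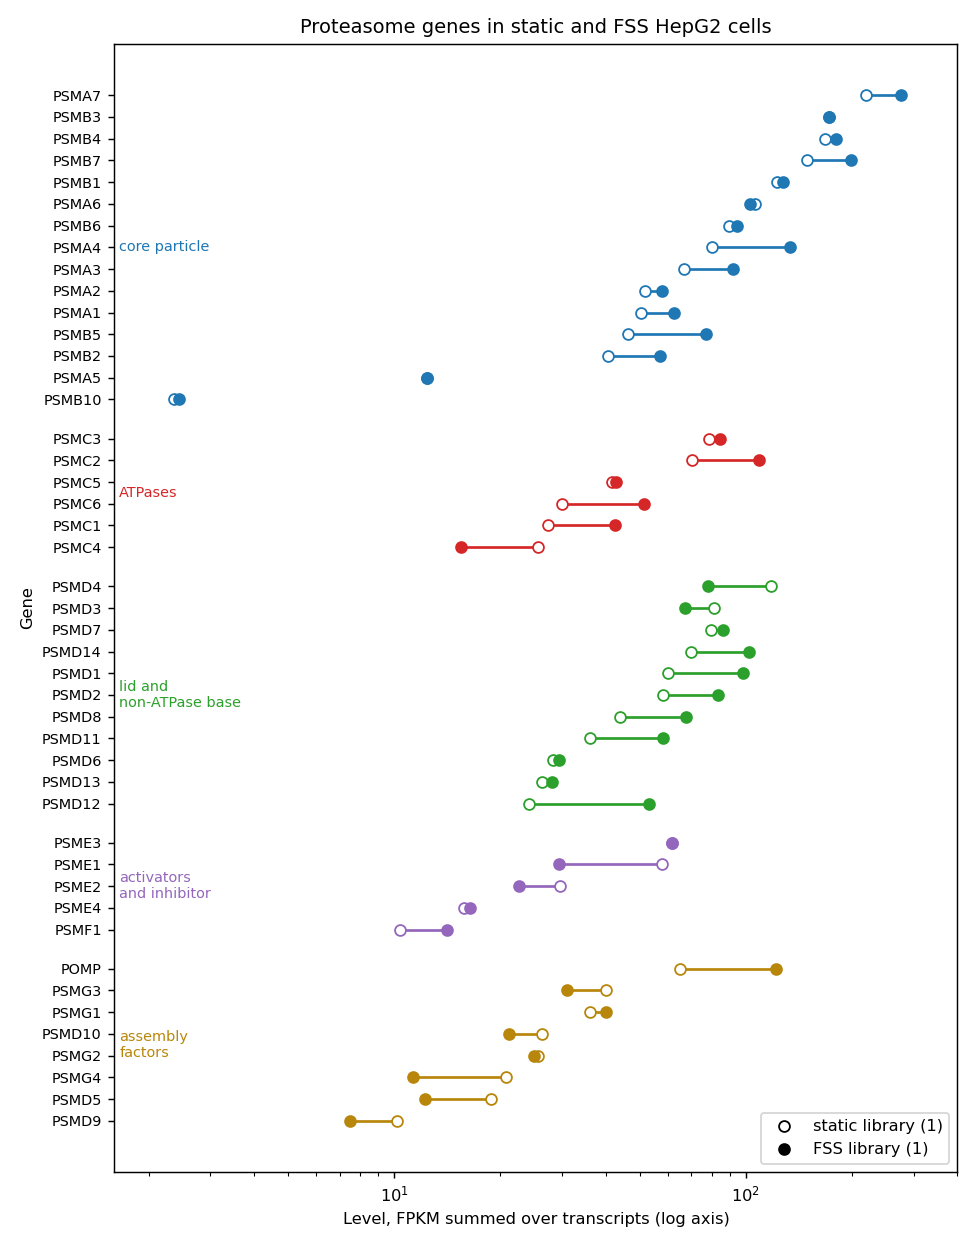
Level of each of the 45 proteasome genes in FPKM on a log axis, with an open circle for the static library and a filled circle for the FSS library (1 library each), grouped by class and ordered by the static level. POMP, PSMD12 and PSMA4 show long lines to the right, PSME1, PSMG4 and PSMC4 long lines to the left, and PSMB3, PSMA5 and PSME3 have both circles in the same place.

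In the core particle, 2 of 15 genes were higher (13.3%, against 10.5% of all genes) and 0 were lower (against 29.5%). The other 13 lay within 1.5-fold. The median log2 ratio was 0.16 (0.39 centred), and the summed level went from 1380 to 1650 FPKM. PSMA4 (ENSG00000041357), an alpha ring subunit, was at 80.1 FPKM in static and 134 FPKM in FSS cells (log2 ratio 0.73.) PSMB5 (ENSG00000100804), which carries the chymotrypsin-like site and is the subunit that bortezomib binds best, was at 46.3 and 76.9 FPKM (0.72). These were the genes of the core particle past 1.5-fold, and they stood at 7.58% and 7.77% from the top of all genes. The other catalytic subunits differed less. PSMB7, with the trypsin-like site, was at 149 and 199 FPKM (0.41), and PSMB6, with the caspase-like site, at 89.8 and 94.7 FPKM (0.08). The level of PSMB5 was thus the lowest of the 3 constitutive catalytic subunits in both libraries, and it was nearer to PSMB6 in FSS cells. PSMB10, the inducible subunit that replaces PSMB7 in the immunoproteasome, was at 2.36 and 2.44 FPKM.

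The alpha ring forms the gate of the barrel, and its other members were PSMA1 at 50.5 and 62.4 FPKM (0.30), PSMA2 at 51.8 and 57.9 FPKM (0.16), PSMA3 at 66.8 and 92.0 FPKM (0.46) and PSMA7 at 220 and 277 FPKM (0.33). PSMA5 was at 12.4 FPKM in both libraries and PSMA6 at 106 and 103 FPKM. PSMA7 was the most abundant of the 45 genes in both libraries, and PSMA5 was the lowest of the constitutive core subunits. Each completed core particle holds these subunits in equal number, whereas the levels of the 14 constitutive genes spanned 17.8-fold in static and 22.4-fold in FSS cells. The beta subunits without a catalytic site were PSMB1 at 123 and 128 FPKM (0.06), PSMB2 at 40.5 and 57.0 FPKM (0.49), PSMB3 at 173 FPKM in both libraries and PSMB4 at 168 and 180 FPKM (0.10). The alpha subunits had a median of 0.30 and the constitutive beta subunits one of 0.10, and all 7 beta values lay at or above 0.

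The ATPases, which form the ring of the base that unfolds substrates, had members past 1.5-fold in both directions. Of the 6 genes, 3 were higher and 1 was lower, with a median of 0.36 (0.59 centred). PSMC6 was at 30.0 FPKM in static and 51.2 FPKM in FSS cells (0.75), PSMC1 at 27.3 and 42.4 FPKM (0.62) and PSMC2 at 70.1 and 109 FPKM (0.62). PSMC4 (ENSG00000013275) went the other way, from 25.7 to 15.5 FPKM, a log2 ratio of -0.70 (-0.47 centred, within 1.5-fold). PSMC3 was at 78.4 and 84.2 FPKM and PSMC5 at 41.5 and 42.7 FPKM. The ring takes 1 copy of each of the 6, and the ratio of the highest to the lowest level among them was 3.05 in static and 7.02 in FSS cells.

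In the lid and the rest of the base, 4 of 11 genes were higher (36.4%) and 1 was lower (9.09%). Over all genes these shares were 10.5% and 29.5%. The median was 0.51 (0.74 centred) and the summed level 626 and 750 FPKM. PSMD12 (ENSG00000197170), a scaffold subunit of the lid, had the highest log2 ratio of the 45 genes, at 24.2 FPKM in static and 52.9 FPKM in FSS cells (1.10). It was the lowest of these 11 genes in static cells, and in FSS cells PSMD6 and PSMD13 lay below it. PSMD11, a lid subunit that in human stem cells has been tied to high proteasome activity, was at 36.1 and 58.1 FPKM (0.67), and PSMD8, a lid subunit added late in assembly, at 43.9 and 67.7 FPKM (0.61). PSMD14, the enzyme of the lid that cuts the ubiquitin chain from the substrate, was at 70.0 and 102 FPKM (0.53), and its partner PSMD7 at 79.4 and 85.9 FPKM (0.11). Of the other scaffold subunits of the lid, PSMD3 was at 81.1 and 67.2 FPKM (-0.27), PSMD6 at 28.2 and 29.4 FPKM (0.06) and PSMD13 at 26.4 and 28.1 FPKM (0.09). The lid had 3 higher (37.5%) and 0 lower genes of 8. Its PSMD3 value was below 0 as deposited and close to 0 when centred (-0.04).

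The other subunits of the base include large scaffolds and ubiquitin receptors. PSMD1, a scaffold which holds the receptor ADRM1, was at 60.0 and 97.9 FPKM (0.70), and PSMD2, a scaffold and receptor which docks ubiquitin carriers and the deubiquitinase USP14, at 58.2 and 83.1 FPKM (0.51). PSMD4 (ENSG00000159352), itself a ubiquitin receptor, was at 118 and 78.0 FPKM (-0.60, or -0.36 centred and then within 1.5-fold). The most abundant of these 3 in static cells was PSMD4 and in FSS cells it was the least abundant. Their levels lay closer together in FSS cells, with a ratio of highest to lowest of 2.04 in static and 1.26 in FSS cells. Over the whole regulatory particle, 7 of 17 genes were higher (41.2%, against 10.5% of all genes) and 2 lower (11.8%, against 29.5%). Its summed level was 899 FPKM in static and 1090 FPKM in FSS cells.

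**Figure D2:**
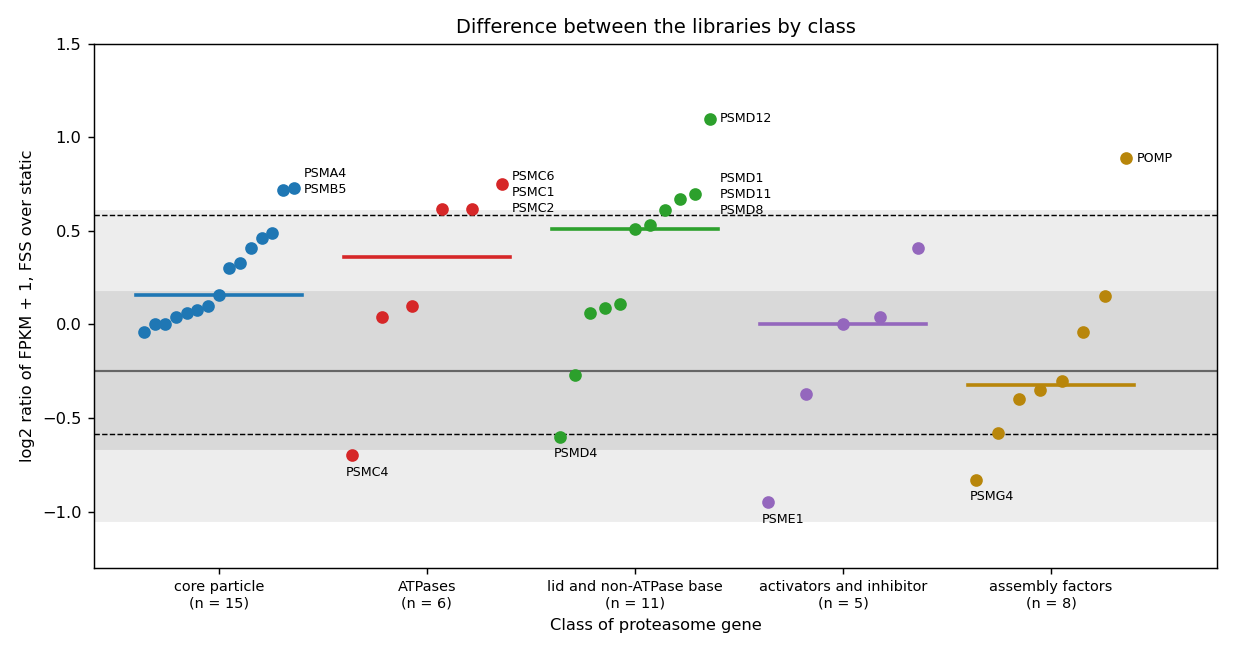
log2 ratio of FPKM + 1, FSS over static, for each proteasome gene, by class, with a coloured bar at the median of the class, dashed lines at 1.5-fold, a grey line at the median of the 11221 genes (-0.25) and grey bands that hold the middle 50% and 80% of them. Genes past 1.5-fold are named: 10 lie above the upper dashed line, led by PSMD12 and POMP, and 4 below the lower one.

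The alternative activators had no gene past 1.5-fold in the higher direction. PSME1 (ENSG00000092010) and PSME2 encode the subunits of an interferon-inducible cap that opens the core particle for peptides without ATP. PSME1 was at 57.7 FPKM in static and 29.4 FPKM in FSS cells (log2 ratio -0.95) (-0.72 centred), the lowest of the 45. PSME2 was at 29.6 and 22.7 FPKM (-0.37). Both log2 ratios lay below 0, PSME1 past 1.5-fold and PSME2 within it, and the level of PSME1 relative to PSME2 was nearer to equal there. PSME3, whose product forms a related cap in the nucleus, was at 61.6 and 61.8 FPKM, and PSME4, a large nuclear activator, at 15.8 and 16.4 FPKM. PSMF1, an inhibitor of the core particle in vitro, was at 10.4 and 14.1 FPKM (0.41).

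As context for PSME1, PSME2 and PSMB10, 8 genes of the interferon-gamma and antigen-processing response were read. Of these, 2 were higher (25.0%, against 10.5% of all genes) and 0 lower (against 29.5%), and the median was -0.01. IRF1, a transcription factor of the response, was at 3.18 and 6.28 FPKM (0.80), and ERAP1, a peptidase that trims antigens, at 1.05 and 2.42 FPKM (0.74). The peptide transporter gene TAP1 was at 3.25 and 4.45 FPKM (0.36) and NLRC5, an activator of class I genes, at 0.545 and 0.264 FPKM. The list held no gene past 1.5-fold in the direction of PSME1 at the pseudocount of 1, but NLRC5 was at -0.82 with a pseudocount of 0.1 and at -1.04 with none. Both higher calls ended at a pseudocount of 5 (IRF1 0.46, ERAP1 0.29), and that of IRF1 also with the most abundant (0.56) or the principal transcripts (0.57).

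Of the 8 assembly factors, 1, POMP, was higher (12.5%, against 10.5% of all genes) and 1, PSMG4, was lower (12.5%, against 29.5%). The median was -0.33 (-0.09 centred). POMP and PSMG1 were the 2 above 0. POMP (ENSG00000132963), the chaperone that guides the beta ring and the joining of the 2 parts of the barrel, was at 65.1 FPKM in static and 122 FPKM in FSS cells (0.89). PSMG1 and PSMG2, partners that start the alpha ring, had 36.1 and 40.1 FPKM (0.15) and 25.7 and 25.0 FPKM (-0.04), respectively. PSMG3 and PSMG4, partners in the next step of the alpha ring, had 39.9 and 31.1 FPKM (-0.35) and 20.8 and 11.3 FPKM (-0.83, or -0.59 centred). PSMG4 (ENSG00000180822) was the second of the 2 genes that stayed lower after centring, with PSME1. POMP exceeded the highest of the PSMG genes in both libraries, and the ratio of highest to lowest level among these 5 factors was 3.13 in static and 10.8 in FSS cells.

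The chaperones of the base each hold an ATPase until the ring is built. PSMD5, which binds PSMC2, was at 18.8 and 12.2 FPKM (-0.58), PSMD9, which binds PSMC6 and PSMC3, at 10.2 and 7.48 FPKM (-0.40), and PSMD10, or gankyrin, which binds PSMC4, at 26.4 and 21.2 FPKM (-0.30). All 3 were below 0, as were 7389 of the 11221 genes measured, and none was past 1.5-fold. Centred they lay between -0.35 and -0.07. PAAF1, which binds PSMC5 and whose symbol falls outside the naming rule, was at 6.07 and 1.53 FPKM (-1.48). Its principal transcript alone gave a log2 ratio of 0.02, so the value of PAAF1 rests on its other transcripts. PSMC2 and PSMC6 were thus higher in FSS cells while the levels of their chaperones were below those in static cells, within 1.5-fold. PSMC2 had 0.19 by its most abundant transcript. PSMC4 (-0.70) and its chaperone PSMD10 were both below their static levels, and PSMC3, which PSMD9 also binds, was at 0.10.

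The sum over transcripts hid shifts between them in some of these genes. All 163 transcripts are annotated as protein-coding in GENCODE release 29, as are 99.6% of the transcripts of the table that could be matched by name and gene, so the table shows no noncoding forms of these genes. The split of a gene into transcripts is an estimate of the assembler, and its error is unknown. A gene was called opposite where transcripts of 5 FPKM or more (in either library) differed by 1.5-fold or more in both directions. This held for 5 of 24 proteasome genes with at least 2 transcripts of that level, PSMA3, PSMA5, PSMA6, PSMC4 and PSMF1, and for 545 of 2088 genes of the whole table (26.1%). The most abundant transcript differed between the libraries in 4 of 41 proteasome genes with at least 2 listed transcripts, PSMA5, PSMB10, PSMC4 and PSMF1, against 26.4% of 8068 such genes in the table. In PSMB10 its 2 forms made up close shares of the FSS level, 49.2% and 50.8%. Neither opposite genes nor genes with a changed top transcript were more frequent here than in the table. Genes were not matched for level: the static median was 46.3 FPKM for the proteasome genes and 8.98 FPKM for all genes measured.

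PSMA6 had nearly the same sum in both libraries and a different makeup. Its principal transcript (PSMA6-201, encoding 246 residues) was at 95.4 FPKM in static and 54.3 FPKM in FSS cells, 90.3% and 52.7% of the gene. PSMA6-204 (252 residues) was listed at 0 FPKM for static culture and 30.0 FPKM under FSS, and PSMA6-214 (203 residues) at 0 and 10.8 FPKM. PSMC4, the ATPase with the lower sum, had its principal form PSMC4-201 (418 residues) at 20.8 and 6.28 FPKM and the shorter PSMC4-202 (387 residues) at 4.89 and 9.19 FPKM. The lower value of PSMC4 was therefore in the full-length form, at a log2 ratio of -1.59. PSMD7 showed the same kind of pattern without a change in its sum: PSMD7-201 (324 residues) was at 75.9 and 54.2 FPKM, and PSMD7-205 (177 residues) at 3.49 and 31.7 FPKM. In PSMD2, the principal form PSMD2-201 (908 residues) was at 57.6 and 58.4 FPKM, and the added level lay in PSMD2-205 (749 residues), at 0.398 and 12.2 FPKM, and PSMD2-206 (778 residues), at 0 and 10.9 FPKM.

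PSMA5 and PSMF1 went the opposite way, towards the principal form. PSMA5-201 (241 residues) was at 4.89 and 9.41 FPKM and PSMA5-206 (183 residues) at 7.48 and 2.95 FPKM, so that the principal share was 39.5% in static and 76.1% in FSS cells. PSMF1-203 (271 residues) was at 0.844 and 9.31 FPKM and PSMF1-201 (263 residues) at 8.99 and 4.49 FPKM. In PSMA3 the principal form led in both libraries (PSMA3-201, 57.1 and 79.6 FPKM), and the opposite forms were PSMA3-202, at 3.29 and 9.19 FPKM, and PSMA3-213, at 6.37 and 3.25 FPKM.

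**Figure D3:**
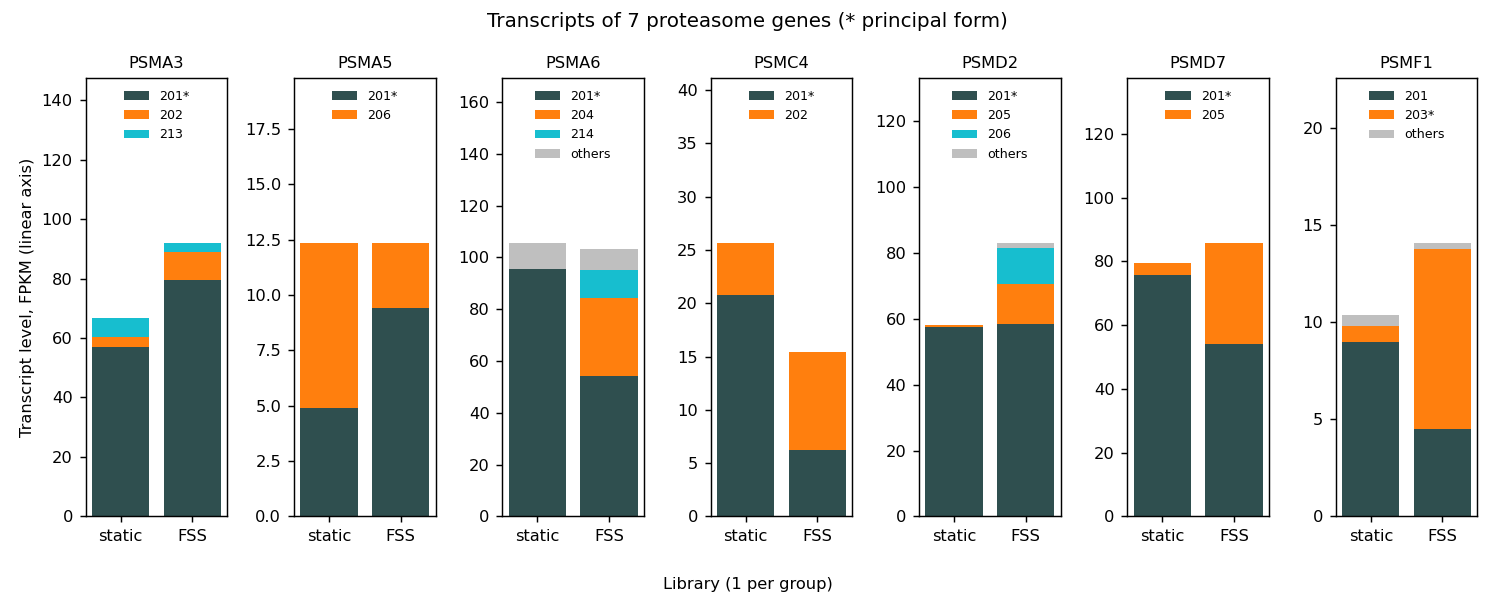
Transcript levels in FPKM on linear axes, stacked by transcript, for 7 proteasome genes in the static and FSS libraries (1 each); numbers in the legends end the transcript name, an asterisk marks the principal form, and grey stands for all transcripts under 5 FPKM in both. PSMA6, PSMC4 and PSMD7 lose height in the dark principal form, and PSMA5 (dark) and PSMF1 (orange) gain it in theirs.

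For the gene with the largest difference a single form made up nearly all of the level. PSMD12-201, the principal form, was at 23.0 and 51.6 FPKM and made up 95.4% and 97.5% of PSMD12. The other listed form, PSMD12-202, was at 1.12 and 1.31 FPKM (0.13). POMP-201 (141 residues) made up 97.4% and 97.0% of POMP, and PSMD11-201 98.0% and 97.2% of PSMD11. In contrast, PSMA4 was spread over 13 transcripts, and its most abundant form, PSMA4-206, encodes 125 residues and was at 33.3 and 55.2 FPKM. The principal forms of PSMA4, of 261 residues, summed to 16.6 and 19.0 FPKM, a log2 ratio of 0.18, so the call of PSMA4 rests on shorter forms. Likewise PSMB5-202, the principal form of PSMB5, had a log2 ratio of 0.38 (30.5 and 40.0 FPKM), within 1.5-fold.

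Counting principal forms alone, 9 of the 45 genes were higher, against 11.8% of 10179 genes, and 6 were lower, against 30.8%, with a median of 0.08. They made up 83.7% of the proteasome FPKM in static cells and 77.3% in FSS cells, and over all genes 78.3% and 78.2%. The effective number of transcripts of a gene (1 over the sum of squared shares) was compared in 40 proteasome genes with at least 2 transcripts and 5 FPKM in both libraries. It was at least 1.5 times higher in FSS in 3 of them, PSMA6 (1.22 and 2.67), PSMD2 (1.02 and 1.87) and PSMD7 (1.09 and 1.87), and at least 1.5 times lower in 0. These shares were 7.5% and 0% in the proteasome genes, and 6.79% and 5.41% over 5210 genes of the table. The median effective number was 1.35 and 1.54 in the proteasome genes and 1.68 and 1.74 in all genes.

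The promoters were read for motifs that the choice of genes did not use. RefSeq windows (GRCh38.p14) of 300 bases, from 250 before to 50 after each annotated start, were found for 39 of the 45 genes, with 47 windows. PSMA7, PSMB1, PSMB6, PSMB7, PSMD4 and PSMG3 had none in the table. The core of the antioxidant response element, TGACNNNGC with N any base, read on both strands, is the letter pattern bound by NFE2L1 and NFE2L2 with small MAF proteins. It lay in 14 of 47 windows (29.8%), 1 or more in each of 14 genes, against 4687 of 35116 windows of all genes (13.3%). Over windows of the other measured genes the share was 14.6% (1860 of 12724). Matches were in 14 of the 39 genes with a window. They were in 3 of the 10 higher genes (PSMA4, PSMD1 and PSMD12) and in 2 of the 3 lower genes with a window (PSME1 and PSMC4). The pattern of letters was thus found in the windows of genes of either direction, and a match is not evidence of binding. In PSMD1 and PSMC4 the match lay after the annotated start, with its first base at 39 and 27. The stretches of 60 bases below are shown because they carry these same letters, in capitals, ahead of the gene with the highest log2 ratio, a gene at the same level in both libraries, the gene with the lowest (PSME1), and its partner PSME2. PSMD12 lies at chr17:67366708-67366767 on the minus strand, PSMB3 at chr17:38752612-38752671 on the plus strand, PSME1 at chr14:24136083-24136142 on the plus strand and PSME2 at chr14:24146751-24146810 on the minus strand, each written 5′ to 3′ along its gene, with the first capital 165, 104, 86 and 175 bases before the start.
PSMD12: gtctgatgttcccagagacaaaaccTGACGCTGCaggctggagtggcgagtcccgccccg
PSMB3: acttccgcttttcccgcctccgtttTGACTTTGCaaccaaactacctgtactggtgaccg
PSME1: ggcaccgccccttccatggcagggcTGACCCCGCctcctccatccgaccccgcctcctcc
PSME2: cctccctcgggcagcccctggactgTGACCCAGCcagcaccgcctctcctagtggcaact

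The other patterns were the heat shock element and the CCAAT box, both read on both strands. The first lay in 0 of 47 windows, against 0.490% of all windows and 0.362% of those of the other measured genes. CCAAT lay in 18 of 47 (38.3%), against 34.6% of all windows and 35.1% of those of the other measured genes. By gene it was in 18 of the 39 with a window. These included 4 of the 10 higher genes (PSMA4, PSMB5, PSMC2 and PSMD8) and 0 of the 3 lower genes with a window. No CCAAT match overlapped a TGACNNNGC match in these windows. By position, 7 of the 45 genes lie on chromosome 14 and 7 on chromosome 17, and PSME1 and PSME2 lie close together on chromosome 14 with 1 coding gene between them.

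Genes that work with the proteasome but fall outside the naming rule were read in 5 lists of 46 genes. Of these 14 were higher (30.4%) and 4 lower (8.7%), against 10.5% and 29.5% of all genes. The median was 0.16 (0.40 centred). The proteasome genes had 10 higher and 4 lower of 45 and a median of 0.10. Among 12 further subunits and partners, 5 were higher (41.7%) and 1, PAAF1, was lower (8.33%), with a median of 0.33. ADRM1, the ubiquitin receptor that sits on PSMD1, was at 66.7 and 167 FPKM (1.31). The remaining lid subunit, SEM1, was at 56.5 and 64.8 FPKM (0.19). ZFAND2A, a stress-inducible protein that binds the regulatory particle, was at 8.06 and 112 FPKM (3.64), and AKIRIN2, which carries proteasomes into the nucleus, at 19.2 and 41.3 FPKM (1.07). The deubiquitinases of the base differed less: USP14 was at 21.8 and 21.0 FPKM and UCHL5, which ADRM1 activates, at 38.0 and 30.8 FPKM (-0.29). Of the 3 ubiquitin receptors of the particle, ADRM1 was thus higher, PSMD4 lower and PSMD2 within 1.5-fold.

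Among 8 regulators of proteasome genes, 4 were higher and 0 lower, with a median of 0.85. NFE2L1, the factor named above, was at 43.2 and 44.7 FPKM (0.05), though its principal forms alone gave 0.94 and its most abundant transcript -0.69. NFE2L2, the factor of the oxidative stress response, was at 16.5 and 46.4 FPKM (1.44). The small MAF partners of both factors were all higher: MAFF was at 8.02 and 65.2 FPKM (2.88), MAFG at 13.7 and 87.9 FPKM (2.60) and MAFK at 8.50 and 25.7 FPKM (1.49). Protein levels and processing of these factors were not measured here.

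Before the proteasome, VCP (p97) pulls ubiquitin-tagged proteins from complexes and membranes. VCP was at 84.7 and 173 FPKM (1.02). Over VCP and its cofactors 3 of 14 genes were higher (21.4%, against 10.5% of all genes) and 2 lower (14.3%, against 29.5%). Their median was 0.01. NSFL1C, a cofactor in membrane fusion, was at 4.61 and 15.4 FPKM (1.55), UBXN4, a cofactor at the endoplasmic reticulum, at 22.4 and 60.8 FPKM (1.40), and UBXN6 at 22.9 and 14.5 FPKM (-0.62). The 6 genes for ubiquitin and its activating enzymes had a median of 0.25, with UBB, which encodes ubiquitin, at 226 and 294 FPKM (0.38). The 6 carriers that bring ubiquitin chains to the proteasome had a median of -0.29. Among them UBQLN1 was at 20.6 and 32.9 FPKM (0.65), RAD23B at 54.7 and 75.3 FPKM (0.45) and DDI2, which also cleaves NFE2L1, at 9.46 and 6.44 FPKM (-0.49).

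**Figure D4:**
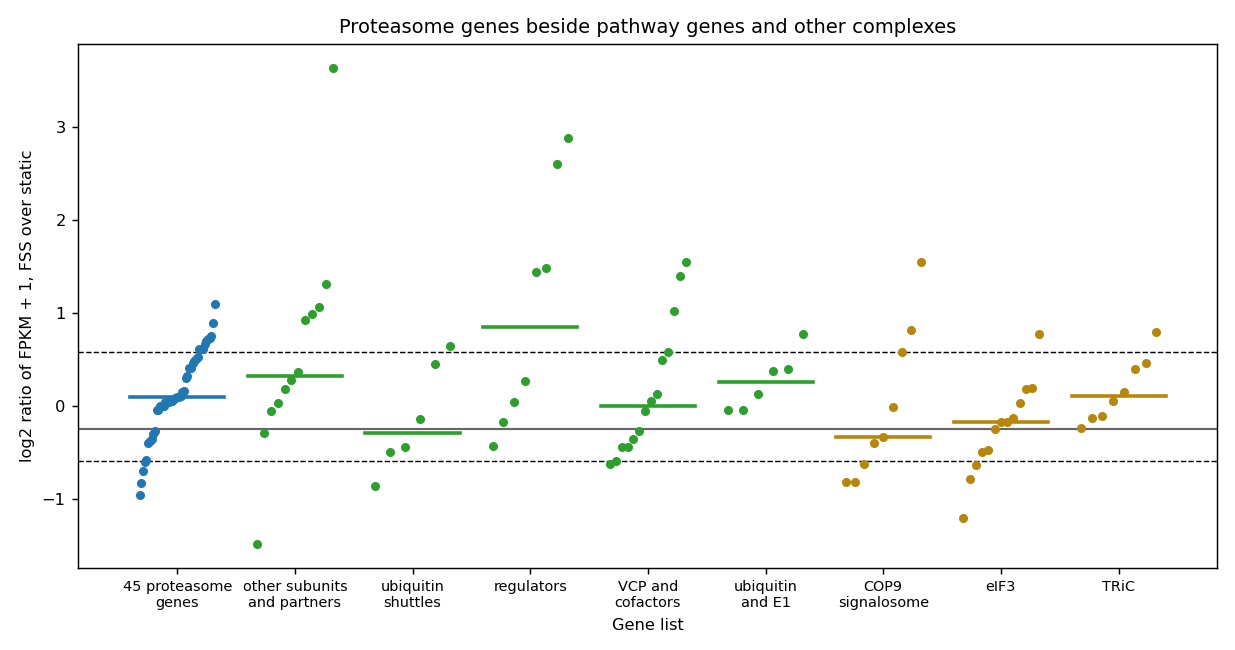
log2 ratio of FPKM + 1, FSS over static, for the 45 proteasome genes (blue), 5 lists of pathway genes (green) and 3 other large complexes (gold), with a bar at each median, dashed lines at 1.5-fold and a grey line at the median of all genes (-0.25). The medians run from -0.33 for the COP9 signalosome to 0.85 for the regulators, with 0.10 for the proteasome genes.

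Complexes of like build were set beside them. The COP9 signalosome, whose subunits are relatives of the lid, had 2 higher (22.2%) and 3 lower (33.3%) of 9, with a median of -0.33. Another relative, eIF3, recruits messenger RNA to the ribosome. It had 1 higher (7.69%) and 3 lower (23.1%) of 13, with a median of -0.17. Over all genes 10.5% were higher and 29.5% lower. TRiC, a chaperonin ring, had 1 higher (12.5%) and 0 lower of 8, with a median of 0.10. The medians of the lid (0.32) and of the lid with the non-ATPase base (0.51) were thus above those of both relatives, a difference that was not tested. Single subunits of the relatives went further than those of the proteasome in both directions: COPS8 was at 9.55 and 30.0 FPKM (1.55) and EIF3E at 203 and 87.8 FPKM (-1.20). COPS8 had a log2 ratio of -0.72 by its principal transcripts.

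The class medians depended on how transcripts were used. For the ATPases the median was 0.36 from gene sums and 0.19 from the most abundant transcripts. For the lid and non-ATPase base the median was 0.51 from gene sums and 0.13 from the most abundant or the principal transcripts, and for the activators and inhibitor it was 0.00 and -0.34. Across 10 alternatives in processing that kept the 1.5-fold limit, PSMD12 lay between 0.99 and 1.33, POMP between 0.85 and 1.12 and PSME1 between -0.97 and -0.64. By which transcripts were counted, PSMA4 had 0.73 (sum), 0.71 (most abundant) and 0.18 (principal), and PSMC2 0.62, 0.19 and 1.08.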

How the data were processed

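HepG2 cells under FSS and in static culture were compared, with 1 library per group mixed from 3 replicates. The values deposited were FPKM of each transcript. Tools in the submitters' processing notes are HISAT2 2.0.5, cutadapt, STAR 2.5.2b (role not given) and StringTie, with build hg19, and by the study's methods FPKM of at least 0.5 came from Ballgown, yet 4375 of 34714 transcripts were under 0.5 in both libraries. Whole reads cannot be recovered from these estimates, so depth and counting error are unknown. FPKM depends on each library's mapped total. There were 0 further value columns. The sources used here give neither strand nor RNA selection.

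Transcripts were summed by gene symbol, and genes with at least 0.5 FPKM in 1 library were kept. The log2 ratio used a pseudocount of 1, which understates the change of low genes. Members, classes and lists were chosen with earlier results of these data known. Every proteasome gene could be named. Other lists gave at most 4 genes each, those of largest absolute log2 ratio, and always NFE2L1, NFE2L2, VCP, USP14, UCHL5, ADRM1, SEM1, ZFAND2A, GAPDH and ACTB. The genes PAAF1, AKIRIN2, UBB and the markers CPS1, ASS1, ASGR1, AMBP, CD68, CD14, COL1A1 and DCN were also given, and some genes of the ubiquitin lists that the rule would name are not reported here. Transcript types, principal forms and coding lengths came from GENCODE release 29, by name and gene, and promoters from RefSeq (GRCh38.p14). Those builds differ from hg19, and file coordinates were not used. The gene ratios and the counts of higher and lower genes were tested on simulated data, and the other steps were not.

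The alternatives were a pseudocount of 0.1 or 5, centring, rescaling to a sum of 1000000, the most abundant transcript (by mean of both libraries), no filter, a filter at 5 FPKM and a fold of 2. A GC correction in 20 bins (11065 of 11221 genes), no pseudocount and principal transcripts were added after seeing the data, as were the effective numbers and the choice of printed stretches. The software was Python 3.11.15 with pandas 2.3.3, numpy 2.4.6 and matplotlib 3.10.9.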

Additional observations from a re-analysis of the deposited data

How the results depend on the processing

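With 1 library per group no library could be left out, and every value rests on both. No paired analysis was possible because each group had 1 library and no test was made. For all genes (median -0.25, 1180 higher, 3310 lower), centring gave -0.02, 2002 and 2012, the GC correction 0.00, 2018 and 1814, a pseudocount of 5 gave -0.14, 664 and 1609, and a fold of 2 gave 484 and 1278. For the proteasome genes (median 0.10, 10 higher, 4 lower), centring gave 0.33, 16 and 2, the GC correction 0.35, 17 and 1, and a fold of 2 gave 1 and 0. The most abundant transcript gave 7 lower, among them PSMA6 at -0.80 and PSMD5 at -0.65. The 10 higher genes kept their call under each alternative at 1.5-fold except a pseudocount of 5 (8 kept), the most abundant transcript (8) and the principal transcripts (7), and the 4 lower genes except under centring (2), the GC correction (1) and a pseudocount of 5 (3).

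Centring, and then the GC correction, moved the class medians to 0.39 and 0.39 for the core particle, 0.59 and 0.56 for the ATPases, 0.74 and 0.68 for the lid and non-ATPase base, 0.24 and 0.19 for the activators and inhibitor, -0.09 and -0.04 for the assembly factors, 0.40 and 0.35 for the pathway genes, and 0.10 and 0.10 for the pooled COP9, eIF3 and TRiC genes. The most abundant transcript gave 0.19, 0.13, -0.34 and -0.18 for the ATPases, lid and base, activators and inhibitor, and assembly factors, and the principal transcripts 0.13 for the lid and base and -0.34 for the activators and inhibitor. Signs turned, with a value past 1.5-fold on at least 1 side, for PSMA5 (0.82 by either), PSMF1 (-0.86, most abundant), CCT8 (2.22 by either), COPS8 (-0.72, principal), NFE2L1 (-0.69, most abundant) and PAAF1 (0.02, principal), by which transcripts were counted. Turns within 1.5-fold, such as PSMD7 (0.11 to -0.48) and PSMB10 (0.04 to -0.27), are not all listed. Opposite transcripts were found in 5 of 24 proteasome genes at 5 FPKM, against 545 of 2088 genes of the table. At 1 FPKM they were found in 6 proteasome genes, against 1623 of 5950 genes of the table. The proteasome genes with at least 2 transcripts of 1 FPKM were not counted. Under the filter at 5 FPKM, 44 of the 45 proteasome genes were left. Depth is unknown, so the precision of low genes such as PSMB10 cannot be given.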
